A study of Mus musculus with 27 samples.

Results

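*Dnmt1*, *Dnmt3a*, *Dnmt3b*, *Dnmt3l*, *Uhrf1*, *Tet1*, *Tet2*, *Tet3* and *Tdg*, which code for the enzymes that write, copy and remove DNA methylation and for close helpers of these enzymes, were followed through a mouse differentiation series. They were chosen by gene symbol, a rule that uses no measured value. They are 9 of the 48795 genes listed for each library, each matched 1 Ensembl gene, and all 9 passed the filter on low counts. Expression was measured by bulk RNA-seq in 27 libraries, which form 9 groups of 3. DNA methylation itself was not analysed here, and all values are of RNA.

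All groups came from 1 clone (clone 7) of XY mouse embryonic stem cells (ESC) of the strain F1:C57BL/6 x CBA. All carried Tesco-CFP, a fluorescent reporter driven by a Sertoli cell enhancer of *Sox9*, and R26-rtTA, the transactivator that responds to doxycycline. EpiSC are epiblast stem cell-like cells made from ESC in 60 h in medium with 1% knockout serum replacement, 20 ng/ml of Activin A and 12 ng/ml of the fibroblast growth factor bFGF. M are early mesodermal cells made from these in 36 h with bFGF (20 ng/ml), BMP4 (10 ng/ml) and the phosphatidylinositol kinase inhibitor LY294002 (10 µM). IM1 to IM5 are media for intermediate mesoderm, the embryonic tissue from which gonad and kidney arise, and all hold bFGF (5 ng/ml) and BMP (20 ng/ml). IM1 holds nothing more, IM3 adds retinoic acid (100 nM), and IM4 adds retinoic acid and the Wnt pathway activator CHIR99021 (0.3 µM). IM2 adds retinoic acid and Activin A (10 ng/ml), and IM5 adds retinoic acid, Activin A and CHIR99021. iSLC are induced Sertoli-like cells, made from IM3 cells with doxycycline-inducible lentiviruses for *Nr5a1* and *Dmrt1* and sorted for the CFP reporter. After infection they were moved to another medium with the growth factors EGF and FGF9, the hormone FSH, a prostaglandin, testosterone and Activin A. iSLC and IM3 thus differ in medium as well as in the introduced genes. iSLC were also replated, exposed to virus and doxycycline, and cultured for further days before the sort. The sources used here do not say which of the described ESC media the ESC libraries came from. The study calls the libraries of a group biological replicates, and whether these were separate differentiations is not given in the sources used here, so the p-values measure the spread between these libraries.

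Expected counts summed to between 35923040 and 84876603 per library. The labels were compared with marker genes. Summed TPM of 5 ESC markers was highest in ESC. *Fgf5* and *Otx2* were highest in EpiSC (119 and 97.25 TPM), as was *Pou3f1*, but *Lin28b* was at 25.74 TPM in EpiSC and 28.89 in M. *T* and *Mesp1* were highest in M (502 and 86.6 TPM), as were *Tbx6* and *Eomes*, but *T* was already at 238.4 TPM in EpiSC. *Cdx2*, another M marker, was at 90.84 TPM in M and 101.4 in IM1. In IM3, *Gata4* (339.7 TPM) and *Wt1* (149 TPM) were present, but *Pax2* and *Lhx1*, which define intermediate mesoderm, were at 0.04 and 0.44 TPM. The other listed markers of intermediate mesoderm and genital ridge, *Osr1*, *Lhx9* and *Emx2*, were also low in IM3, at 1.11, 1.84 and 1.91 TPM. In iSLC, *Nr5a1* and *Dmrt1* were at 93.8 and 213 TPM, which includes the introduced copies, and *Gata4* and *Sox9* at 161 and 24.8 TPM. The Sertoli genes *Amh*, *Dhh*, *Cst9*, *Fgf9* and *Cyp26b1* were at 0.56, 1.86, 1.5, 1.13 and 3.14 TPM. The summed TPM of all 9 Sertoli genes was highest in iSLC, at 474 to 522. It was 419 to 434 in IM3 and 27.4 to 30.6 in ESC. That sum holds the introduced *Nr5a1* and *Dmrt1*, so it does not test the label. *Gata4*, *Sox9*, *Cyp26b1* and *Cst9* were higher in IM3 than in iSLC, at 339.7, 40.04, 39.75 and 4.41 TPM in IM3. *Amh*, *Dhh* and *Fgf9* were lower in IM3 than in iSLC, at 0.44, 0.7 and 0.77 TPM in IM3. The iSLC libraries went against the XY label, since the Y chromosome genes *Kdm5d*, *Eif2s3y*, *Uty* and *Ddx3y* had group means of 0.57, 3.40, 1.14 and 1.17 TPM there. In the other 8 groups the means of *Eif2s3y* lay between 53.01 and 70.55 TPM, and those of *Ddx3y* between 16.73 and 31.83 TPM. All 3 iSLC libraries share this, so the iSLC comparisons cannot be given without it, and its part in them was not tested. IM5 replicate 1 and M replicate 2 stood farthest from their replicates, with a chi-square of counts per degree of freedom, which also rises with depth, of 29.8 to 53.8 in the pairs that hold them and 3.64 to 25.4 in the pairs of the other libraries.

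DNA methylation in mammals is a methyl group on the cytosine of CpG sites, and it is best known for the stable silencing of germline genes, imprinted alleles, transposons and the inactive X chromosome. DNMT3A and DNMT3B place new methyl groups, and DNMT3L, which has lost catalytic activity, binds and stimulates them. DNMT1 copies the pattern onto the new strand after replication, guided by UHRF1, which recognizes sites methylated on a single strand. TET1, TET2 and TET3 oxidize methylcytosine stepwise, and TDG cuts out the most oxidized forms so that base excision repair can place an unmodified cytosine. In the mouse embryo, methylation is low in the inner cell mass and is laid down again in the epiblast around implantation, where DNMT3B is the main new writer.

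The 9 genes lie on 7 chromosomes (build GRCm38, annotation GENCODE M21). *Dnmt1* (ENSMUSG00000004099) lies at chr9:20907209-20959888 on the minus strand, *Uhrf1* (ENSMUSG00000001228) at chr17:56303321-56323486 on the plus strand, and *Tdg* (ENSMUSG00000034674) at chr10:82629828-82650799 on the plus strand. *Dnmt3a* (ENSMUSG00000020661) lies at chr12:3806007-3914443 on the plus strand, *Dnmt3b* (ENSMUSG00000027478) at chr2:153649450-153687730 on the plus strand and *Dnmt3l* (ENSMUSG00000000730) at chr10:78041947-78063622 on the plus strand. *Tet1* (ENSMUSG00000047146) lies at chr10:62804570-62908996 on the minus strand, *Tet2* (ENSMUSG00000040943) at chr3:133463679-133545139 on the minus strand and *Tet3* (ENSMUSG00000034832) at chr6:83362373-83459084 on the minus strand.

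These genes hold CpG sites in their own promoters to very different degrees. For each RefSeq start site (build GRCm38.p6) the 250 bases before it were searched for the letters CG, which read the same on both strands. All 9 genes matched, with 16 windows among the 32851 windows of all genes, whose median is 6 CpG. The windows below are those of the genes with the widest falls in RNA, *Dnmt3b* and *Dnmt3l*, of *Tet2*, whose window is the richest of the 9 genes, and of both start regions of *Dnmt3a*, on which the transcript lengths given later turn. Each is written in the direction of the gene with CpG sites in capitals.
*Dnmt3a*, upstream start, chr12:3806910-3807159, plus strand: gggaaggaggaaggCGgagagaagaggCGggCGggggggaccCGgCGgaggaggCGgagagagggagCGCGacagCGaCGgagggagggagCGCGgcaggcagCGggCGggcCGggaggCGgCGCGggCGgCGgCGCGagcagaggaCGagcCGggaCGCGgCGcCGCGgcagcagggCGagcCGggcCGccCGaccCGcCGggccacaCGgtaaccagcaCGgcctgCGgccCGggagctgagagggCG
*Dnmt3a*, internal start, chr12:3891494-3891743, plus strand: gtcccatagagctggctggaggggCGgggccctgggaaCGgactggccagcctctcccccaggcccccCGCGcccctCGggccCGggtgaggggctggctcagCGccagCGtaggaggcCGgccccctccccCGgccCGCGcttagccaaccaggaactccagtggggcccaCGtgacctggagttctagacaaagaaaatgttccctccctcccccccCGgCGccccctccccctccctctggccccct
*Dnmt3b*, chr2:153649199-153649448, plus strand: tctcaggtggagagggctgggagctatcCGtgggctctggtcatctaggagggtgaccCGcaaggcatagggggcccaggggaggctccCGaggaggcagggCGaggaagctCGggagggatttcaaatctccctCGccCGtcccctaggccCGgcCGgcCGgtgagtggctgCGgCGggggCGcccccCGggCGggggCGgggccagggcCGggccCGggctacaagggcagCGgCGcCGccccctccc
*Dnmt3l*, chr10:78049592-78049841, plus strand: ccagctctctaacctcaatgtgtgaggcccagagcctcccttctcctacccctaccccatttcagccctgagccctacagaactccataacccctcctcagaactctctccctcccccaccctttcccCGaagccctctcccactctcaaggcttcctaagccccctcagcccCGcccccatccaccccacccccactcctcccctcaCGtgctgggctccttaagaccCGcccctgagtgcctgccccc
*Tet2*, chr3:133544391-133544640, minus strand: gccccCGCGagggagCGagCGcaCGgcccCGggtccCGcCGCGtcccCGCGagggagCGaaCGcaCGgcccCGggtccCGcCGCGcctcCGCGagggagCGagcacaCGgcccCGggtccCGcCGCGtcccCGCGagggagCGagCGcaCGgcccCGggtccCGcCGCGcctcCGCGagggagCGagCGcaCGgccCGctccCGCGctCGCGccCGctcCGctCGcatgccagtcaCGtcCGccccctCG

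The *Tet2* window holds 51 CpG, and 0.07% of all windows hold at least as many. The upstream window of *Dnmt3a* holds 40 (1.31% of all windows), its internal window 15 (27.31%), and the window of *Dnmt3b* 21 (16.35%). The 3 windows of *Dnmt3l* hold 5, 4 and 3 CpG, at or below the median of all windows. These are counts of letters and say nothing of methylation in these cells.

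Levels are given in TPM, the transcript share of each gene scaled to a fixed sum, which is per transcript length and so can be compared between genes. Along the series the 9 genes fell into a few patterns. *Dnmt3l* and *Dnmt3b*, highest in ESC and EpiSC, covered the widest ranges, with the highest group mean 356 and 110 times the lowest. The TET genes followed, *Tet2* with 19.2-fold, *Tet1* with 14.9-fold and *Tet3* with 9.81-fold, and *Tet3* was the member with its lowest mean in ESC. *Dnmt3a* covered 3.69-fold, and *Uhrf1*, *Dnmt1* and *Tdg*, the maintenance pair and the glycosylase, covered 2.68-, 2.04- and 1.86-fold.

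**Figure D1:**
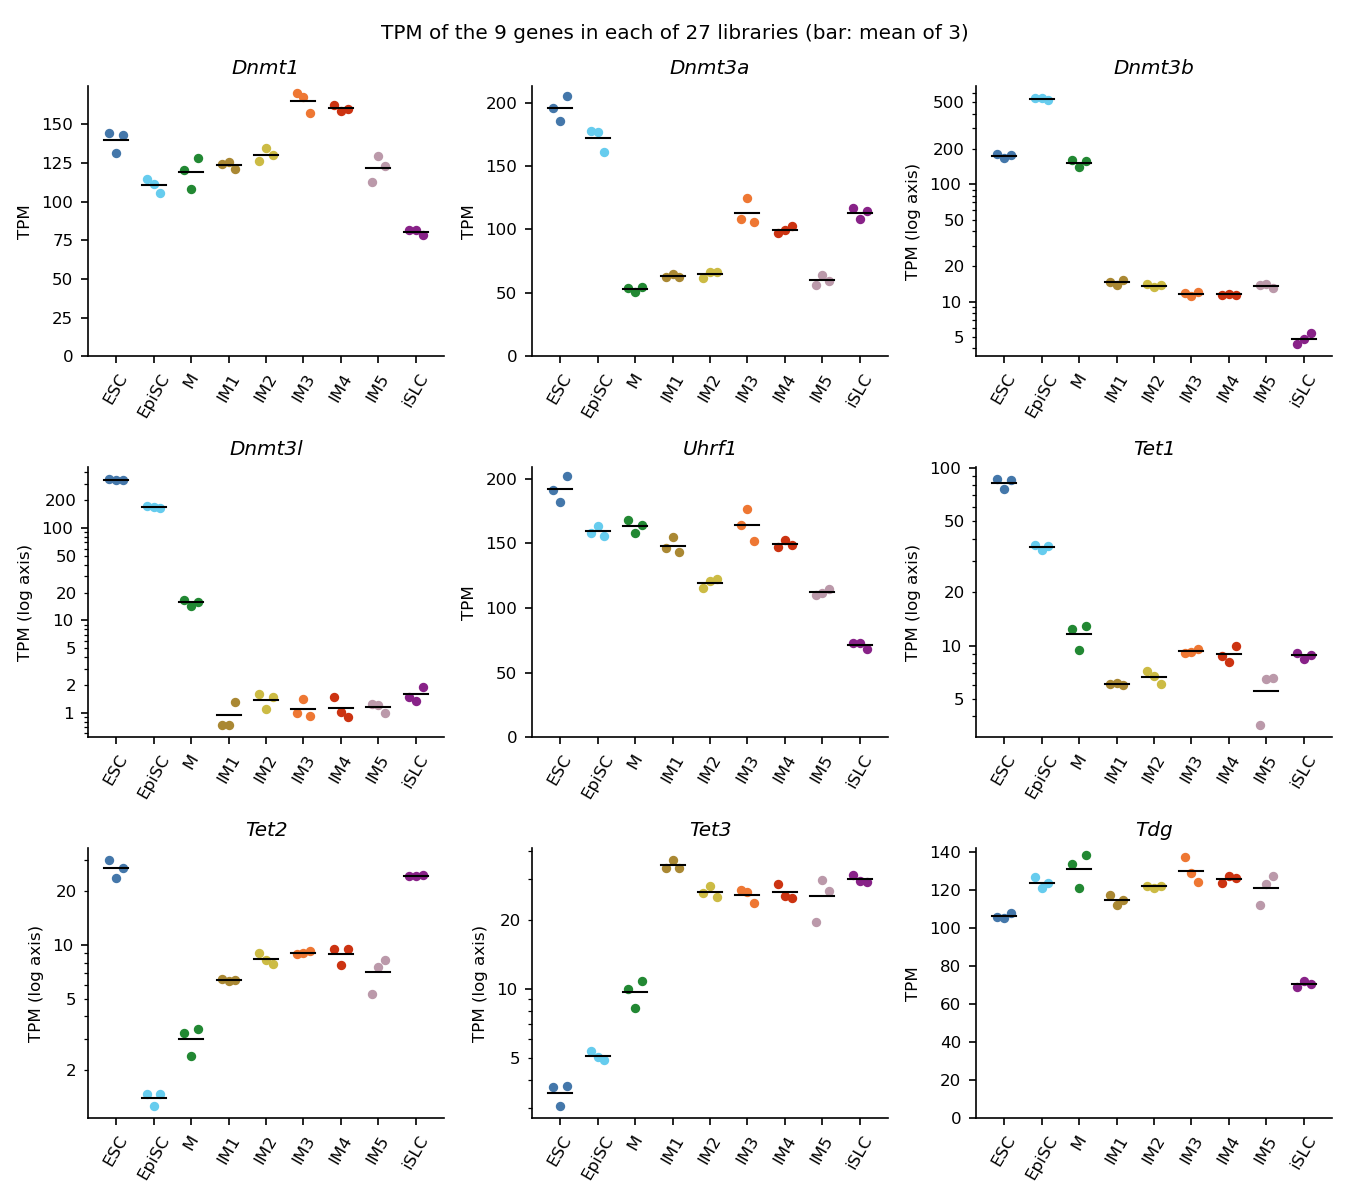
TPM (y axis, from 0 for *Dnmt1*, *Dnmt3a*, *Uhrf1* and *Tdg*, log axis for the others) of the 9 genes in each of the 27 libraries, with the group on the x axis, a point for each library and a bar for the mean of 3. *Dnmt3b* runs from 534 TPM in EpiSC to 4.84 in iSLC, *Tet3* is lowest in ESC, and *Tet2* is high at both ends of the series.

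A test over all 9 groups (edgeR quasi-likelihood, adjusted p under 0.05) passed for 96.4% of the 20839 genes tested and for 9 of the 9 members, so passing it sets no gene apart. Ranked by p among all genes, *Dnmt3b* stood at 13 and *Dnmt3l* at 45, *Tet1* at 724 and *Dnmt1* at 6321. Between groups, 2 rules were used. A gene was called DE when its adjusted p did not exceed 0.01, it changed 2-fold or more, and its normalized read count averaged 100 or more, both over the 27 libraries and in 1 or both of the groups. The other rule asked for the adjusted p alone. A normalized read count is scaled to library size but not to length, and fold changes below are on this scale. The median gene stood lower in TPM than in normalized counts in EpiSC (by -0.151 on the log2 scale) and higher in IM3 (by 0.094), so small differences can point different ways on the 2 scales.

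From ESC to EpiSC the RNA of *Dnmt3b* rose and that of *Tet1* and *Tet2* fell. *Dnmt3b* was at 179.8, 166 and 179 TPM in the 3 ESC libraries and at 539, 539 and 524 TPM in EpiSC (log2 fold change 1.66 ± 0.0622 SE, adjusted p = 6.88e-18). *Tet2* was at 29.9, 23.8 and 27.04 TPM in ESC and at 1.47, 1.26 and 1.47 TPM in EpiSC (log2 fold change -4.31 ± 0.107 SE, adjusted p = 2.04e-21). EpiSC thus held the highest *Dnmt3b* and the lowest *Tet2* of all groups, with no overlap with any other group for either gene. *Tet1* was at 86.3, 76.3 and 85.6 TPM in ESC and at 36.9, 34.4 and 36.3 TPM in EpiSC (log2 fold change -1.14 ± 0.0903 SE, adjusted p = 3.09e-11). *Dnmt3l*, the cofactor, went from 337, 333 and 333 to 172, 171 and 166 TPM, a fall of 1.91-fold (adjusted p = 7.19e-10) that stayed just under the fold minimum. Under the DE rule 1 member was higher and 2 were lower, against 3.75% and 4.32% of all genes tested. Under the p rule alone 8 members passed, against 49.5% of all genes tested.

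The remaining members moved less from ESC to EpiSC. *Tet3* differed by 0.53 (adjusted p = 3.09e-06), *Tdg* by 0.32 (adjusted p = 2.38e-08), *Dnmt1* by -0.30 (adjusted p = 3.85e-07) and *Uhrf1* by -0.22 (adjusted p = 0.000449) on the log2 scale. *Dnmt3a*, the other new writer, was at 195, 185 and 205 TPM in ESC and 178, 177 and 161 TPM in EpiSC, and its normalized counts overlapped and did not pass (-0.08, adjusted p = 0.136). *Dnmt3a* therefore made up 52.8% ± 0.674 (SD, n = 3) of the summed *Dnmt3a* and *Dnmt3b* TPM in ESC and 24.3% ± 0.721 in EpiSC. Red blood cell transcripts moved with this comparison, with 4.02 to 27.6 CPM (counts scaled to a fixed library size) summed over 6 genes in ESC and 0.589 to 0.866 in EpiSC. Of 6 genes of endothelium and blood, 2 were DE and lower (*Pecam1* and *Tek*), with 50.1 to 51.6 summed TPM in ESC and 16.9 to 17.2 in EpiSC, and of 6 germ cell genes 2 were DE and higher (112 to 119 and 184 to 190.2 summed TPM). Their part in the result was not tested.

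From EpiSC to M the new writers and *Tet1* fell together while *Tet2* rose. *Dnmt3a* was at 53.6, 50.7 and 54.6 TPM in M, the lowest of all groups and 3.005-fold lower in normalized counts than in EpiSC (log2 fold change -1.59 ± 0.0485 SE, adjusted p = 3.13e-20). *Dnmt3b* returned to 160.1, 139 and 159 TPM, below its ESC level in every library (log2 fold change -1.91 ± 0.0627 SE, adjusted p = 1.49e-19 against EpiSC). *Dnmt3l* dropped to 16.7, 14.3 and 16.0 TPM, 11.4-fold lower (log2 fold change -3.51 ± 0.0996 SE, adjusted p = 7.06e-21). All 3 DNMT3 genes among the members thus fell in this single step. *Tet1* was at 12.5, 9.39 and 12.9 TPM (log2 fold change -1.84 ± 0.0931 SE, adjusted p = 1.35e-15) and *Tet2* at 3.22, 2.39 and 3.38 TPM (log2 fold change 1.03 ± 0.108 SE, adjusted p = 3.44e-09). The rise of *Tet2* was under the fold minimum without EpiSC replicate 2, M replicate 1 or M replicate 3 (0.961, 0.999 and 0.943 on the log2 scale) and with a GC offset (0.886). *Tet3* passed the p rule alone, at 9.98, 8.25 and 10.7 TPM against 5.35, 5.02 and 4.87 in EpiSC (0.90, adjusted p = 8.85e-11 on the log2 scale). *Dnmt1*, *Uhrf1* and *Tdg* did not pass, with log2 fold changes of 0.04 (adjusted p = 0.363), -0.04 (adjusted p = 0.455) and -0.08 (adjusted p = 0.0449). Under the DE rule 1 member was higher and 4 were lower, against 6.79% and 7.72% of all genes tested, and 6 passed the p rule, against 61.4%. Red blood cell transcripts were at 12.5 to 21.3 CPM in M against 0.589 to 0.866 in EpiSC. Of the 6 endothelium and blood genes, 1 was DE and higher (*Kdr*) and 2 were lower, at 53.6 to 66.8 summed TPM in M, and 4 of the 6 germ cell genes were DE and lower, at 29.1 to 35.5 summed TPM. The part of these in the result was not tested.

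From M to the IM media *Dnmt3b* and *Dnmt3l* fell to their low levels and *Tet3* rose. *Dnmt3b* was at 14.6, 14.0 and 15.2 TPM in IM1 and 11.9, 11.1 and 12.1 TPM in IM3, 15.4-fold lower in IM3 than in M (log2 fold change -3.94 ± 0.0706 SE, adjusted p = 4.55e-25). *Dnmt3l* was at 0.750, 0.740 and 1.33 TPM in IM1 and 1.00, 1.42 and 0.920 TPM in IM3 (log2 fold change -4.02 ± 0.156 SE, adjusted p = 3.77e-18 for IM3 against M). In IM1 to IM5 and iSLC its libraries lay between 0.74 and 1.93 TPM, and the groups next to each other in the order of its level overlapped. *Tet3*, the TET gene best known from the egg, was at 33.6, 36.3 and 33.6 TPM in IM1 and 26.96, 26.3 and 23.6 TPM in IM3, above M in every library of both (log2 fold change 1.71 ± 0.077 SE, adjusted p = 9.66e-17 for IM1 and log2 fold change 1.21 ± 0.0766 SE, adjusted p = 1.45e-13 for IM3). *Tet2* rose from M to IM3 (log2 fold change 1.33 ± 0.0994 SE, adjusted p = 4.32e-12), at 8.98, 9.06 and 9.29 TPM. *Tet1* fell further, under the DE rule in IM1 (-1.22, adjusted p = 7.94e-12) and under the p rule alone in IM3 (-0.72, adjusted p = 1.64e-07).

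*Dnmt3a* rose again from M to IM3. It was at 108, 125 and 106 TPM in IM3, 2.07-fold above M in normalized counts (log2 fold change 1.05 ± 0.048 SE, adjusted p = 1.32e-16), and at 62.9, 65.2 and 62.9 TPM in IM1 (log2 fold change 0.23 ± 0.0476 SE, adjusted p = 0.000144). With an offset for the trend of counts with GC content, the IM1 difference from M changed sign, to -0.025 (adjusted p = 0.609). The call in IM3 fell under the fold minimum with this offset (0.903 on the log2 scale) and without IM3 replicate 2 (0.994). *Dnmt1* rose slightly from M to IM3 (0.28, adjusted p = 5.57e-07), and *Uhrf1* (-0.20, adjusted p = 0.00135) and *Tdg* (-0.19, adjusted p = 5.29e-05) fell slightly in normalized counts. In TPM, *Uhrf1* was at 168, 158 and 164 in M and 165, 177 and 152 in IM3, which overlap. The *Uhrf1* call was lost without M replicate 2, IM3 replicate 1 or IM3 replicate 3 (adjusted p = 0.0123, 0.0159 and 0.0116), and with the GC offset *Dnmt1* was at 0.103 (adjusted p = 0.0157). From M to IM1, 1 member was higher and 3 were lower under the DE rule, against 9.72% and 5.94% of all genes tested, and 8 passed the p rule, against 61.4%. From M to IM3, 3 members were higher and 2 were lower, against 9.26% and 5.66%, and all 9 passed the p rule, against 57.6%.

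Genes listed as markers of other cells moved in these steps as well. A list does not show which cells made the RNA, and *Dppa3*, 1 of the 6 germ cell genes, is also among the maintenance genes given later. *Dazl* and *Ddx4*, also among these 6, are in the list of germline genes silenced by promoter methylation given later, so the lists are not separate. Of the 6 endothelium and blood genes, 4 were DE and higher in IM1 than in M (median 3.73 on the log2 scale), and in IM3 3 were DE and higher and 1, *Kdr*, lower (median 2.08). Their summed TPM was 53.6 to 66.8 in M, 125 to 137 in IM1 and 65.1 to 75.3 in IM3, and *Cdh5* and *Tek* were at 0.267 and 0.0933 TPM in M. All 6 red blood cell genes were lower in IM1 than in M under the p rule, 2 of them DE, with 0.923 to 1.38 summed CPM in IM1 against 12.5 to 21.3 in M, while IM3 held 6.14 to 19.6 CPM (median log2 fold change of the 6 genes -0.155). Of the 6 germ cell genes, 3 were DE and lower in IM1 and 4 in IM3, at 11.8 to 14.0 and 5.55 to 6.84 summed TPM. The part of these in the results was not tested.

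IM3 and IM1 differ in retinoic acid, a derivative of vitamin A. *Dnmt3a* was the member that differed most, at 62.9, 65.2 and 62.9 TPM without and 108, 125 and 106 TPM with retinoic acid (log2 fold change 0.82 ± 0.0477 SE, adjusted p = 9.14e-14), and the groups did not overlap. *Tet1* (0.50, adjusted p = 7.82e-05), *Tet2* (0.42, adjusted p = 0.000471) and *Dnmt1* (0.33, adjusted p = 1.04e-07) were higher with retinoic acid, and *Tet3* (-0.50, adjusted p = 2.71e-06) and *Dnmt3b* (-0.43, adjusted p = 5.75e-06) were lower, all by less than the fold minimum. With edgeR 0 members were DE in either direction, against 2.62% of all genes tested that were higher and 3.72% that were lower. The p rule passed for 6 members (41.3% of all genes tested), 6 had an unadjusted p under 0.05, and DESeq2 gave 0 DE members and 6 under the p rule. Of 12 genes of DNA replication and proliferation, 11 were higher with retinoic acid under the p rule (median log2 fold change 0.27). Red blood cell transcripts were at 6.14 to 19.6 CPM in IM3 and 0.923 to 1.38 in IM1. Of the 6 endothelium and blood genes, 4 were DE and lower with retinoic acid (median -1.33), at 65.1 to 75.3 summed TPM in IM3 and 125 to 137 in IM1, and *Cdh5* went from 42.3 TPM in IM1 to 11.5 in IM3. Of the 6 germ cell genes, 2 were DE and lower, and the GC trend of the libraries was -0.408 to -0.076 in IM3 and 0.117 to 0.234 in IM1. The part of these in the result was not tested.

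Activin A, a ligand of the TGF-beta family, was added to retinoic acid medium without CHIR99021 in IM2 (against IM3) and with it in IM5 (against IM4). *Dnmt3a* was at 61.7, 66.8 and 66.1 TPM in IM2 against 108, 125 and 106 in IM3 (log2 fold change -0.75 ± 0.0477 SE, adjusted p = 1.59e-12). It was at 56.6, 64.5 and 59.4 TPM in IM5 against 97.0, 99.4 and 103 in IM4 (log2 fold change -0.63 ± 0.0475 SE, adjusted p = 4.77e-11). In both pairs every library with Activin A lay below every library without it. *Uhrf1* was at 115, 121 and 122 TPM in IM2 and 110.3, 112 and 114 TPM in IM5, against 165, 177 and 152 in IM3 and 147, 153 and 149 in IM4. Its log2 fold changes were -0.44 (adjusted p = 1.12e-07) and -0.38 (adjusted p = 8.69e-07). *Dnmt1*, its partner at the replication fork, fell with Activin A by similar values of -0.32 (adjusted p = 3.4e-07) and -0.35 (adjusted p = 4.25e-08). *Tet1* fell as well, with -0.41 (adjusted p = 0.0011) and -0.55 (adjusted p = 2.82e-05). It was at 3.57, 6.50 and 6.59 TPM in IM5, and without the low IM5 replicate 1 the second value was -0.401 (adjusted p = 0.000254). *Dnmt3b* was higher, with 0.25 (adjusted p = 0.00389) and 0.28 (adjusted p = 0.000862). The *Dnmt3b* call in IM2 was lost without IM2 replicate 3, IM3 replicate 1 or IM3 replicate 2 (adjusted p = 0.0259, 0.0214 and 0.0148) and with the GC offset (0.187, adjusted p = 0.0231).

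None of these passed the fold minimum. For IM2 against IM3, edgeR gave 0 DE members (2.46% of all genes tested were higher and 1.34% lower) and 5 under the p rule (30.3%), with 5 at an unadjusted p under 0.05, and DESeq2 gave 0 and 5. For IM5 against IM4, edgeR gave 0 DE members (2.63% higher and 1.46% lower) and 5 under the p rule (36.8%), with 6 at an unadjusted p under 0.05, and DESeq2 gave 0 and 5. *Tet2*, *Tet3*, *Tdg* and *Dnmt3l* did not pass in either pair, although *Tet2* passed in IM5 without IM4 replicate 2, IM5 replicate 2 or IM5 replicate 3 (adjusted p = 0.00714, 0.00988 and 0.00356). Of the 12 proliferation genes, 11 were lower with Activin A under the p rule in each pair, with median log2 fold changes of -0.28 and -0.27. Red blood cell transcripts were at 0.375 to 0.587 CPM in IM2 and 0.664 to 0.859 in IM5, against 6.14 to 19.6 in IM3 and 8.32 to 19.7 in IM4. Of the 6 endothelium and blood genes, *Pecam1* was DE and higher in both pairs and *Tek* DE and lower in IM5 than in IM4, with 70.9 to 83.6 summed TPM in IM2 and IM5 and 65.1 to 80.2 in IM3 and IM4, and 1 of the 6 germ cell genes was DE and higher in each pair. The GC trend was -0.095 to 0.17 in IM2 and 0.129 to 0.423 in IM5, against -0.408 to -0.076 and -0.352 to -0.183. The part of these in the result was not tested, and with a GC offset *Dnmt3a* differed by -0.855 and -0.769 on the log2 scale.

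CHIR99021, which blocks GSK3 and so mimics Wnt signaling, went with no called change of any member in the edgeR fit. *Dnmt3a* was at 97.0, 99.4 and 103 TPM in IM4 and 108, 125 and 106 TPM in IM3 (log2 fold change -0.16 ± 0.0473 SE, adjusted p = 0.0857). The TPM values do not overlap, but the edgeR test on counts did not pass, and DESeq2 passed *Dnmt3a* under the p rule. For IM4 against IM3, edgeR gave 0 DE members and 0 under the p rule, with 1 at an unadjusted p under 0.05, and DESeq2 gave 0 and 1. Of all genes tested, 0% were DE and higher, 0.101% were DE and lower, and 1.03% passed the p rule. For IM5 against IM2, edgeR and DESeq2 gave 0 members under either rule and 0 at an unadjusted p under 0.05, against 0.0432% of all genes higher, 0.192% lower and 4.22% under the p rule. The interaction of Activin A and CHIR99021 gave 0 members under either rule with edgeR and with DESeq2, against 0.0096%, 0.024% and 0.182% of all genes. At an unadjusted p under 0.05 edgeR gave 0 members and DESeq2 1.

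Shares of a family's summed TPM do not depend on library size. By these shares the balance within the families differed between IM2 with IM5 and IM3 with IM4. *Dnmt3a* made up 80.2% to 83.5% of the summed *Dnmt3a* and *Dnmt3b* TPM in the 6 libraries with Activin A and 89.4% to 91.8% in the 6 without. The means were 82% ± 1.11 and 90.1% ± 0.879 (SD, n = 6), a difference in a two-sided exact permutation test (p = 0.00216, adjusted p = 0.00289 over 4 measures). *Tet1* made up 12.5% to 16.9% of the summed TET TPM with Activin A and 18.6% to 22.4% without, and these 6 and 6 libraries did not overlap either (exact permutation p = 0.00216, adjusted p = 0.00289). The log2 ratio of *Dnmt3a* plus *Dnmt3b* to *Dnmt1* was -0.73 ± 0.0317 with Activin A and -0.47 ± 0.0978 without (SD, n = 6, exact permutation p = 0.00216, adjusted p = 0.00289). This p is the smallest that 6 against 6 can give. Each 6 pools libraries with and without CHIR99021 as if they were 1 condition, since 3 against 3 cannot give a p under 0.1. The log2 ratio of *Uhrf1* to *Dnmt1* was -0.12 ± 0.0635 with Activin A and -0.05 ± 0.0742 without, and the libraries overlapped (exact permutation p = 0.115, adjusted p = 0.115, n = 6). IM1, which holds neither retinoic acid nor Activin A, was not in these tests. Its *Dnmt3a* share was 80.6% to 82.4% and its *Tet1* share 12.7% to 13.1%, within the ranges with Activin A. Its log2 ratio of *Dnmt3a* plus *Dnmt3b* to *Dnmt1* was -0.68 to -0.64, and that of *Uhrf1* to *Dnmt1* 0.23 to 0.31.

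Along the whole series the TET family changed its leading member. *Tet1* made up 73.2% of the summed TET TPM in ESC, 84.7% in EpiSC and 47.8% in M, and 12.9% in IM1 and 13.9% in iSLC (means, n = 3). *Tet3* made up 3.10% in ESC, 12.0% in EpiSC, 39.9% in M, 73.5% in IM1 and 47.4% in iSLC. *Tet2* made up 23.7% in ESC, 3.3% in EpiSC and 38.7% in iSLC. The summed TET TPM was 113 in ESC, 42.3 in EpiSC, 24.3 in M and 63.3 in iSLC, so the shares in M are of the smallest sum. *Dnmt3a* made up 25.8% of the summed *Dnmt3a* and *Dnmt3b* TPM in M, 81.4% in IM1, 90.5% in IM3 and 95.9% in iSLC.

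**Figure D2:**
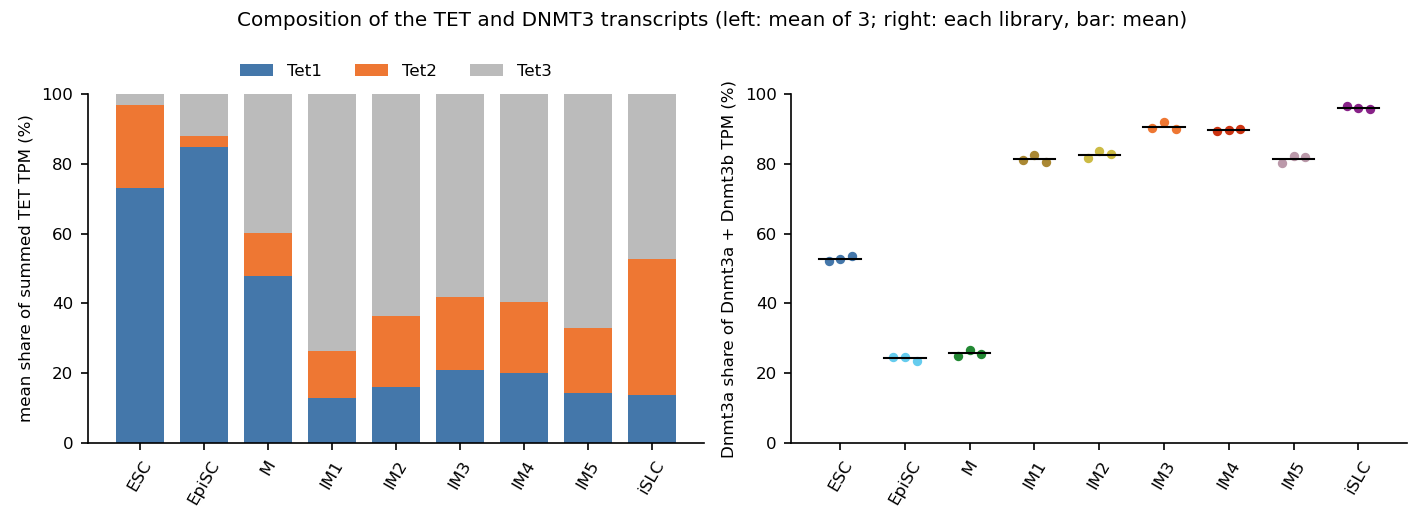
Left, mean share (y axis, percent) of *Tet1*, *Tet2* and *Tet3* in the summed TET TPM of each group (x axis, n = 3). Right, the share of *Dnmt3a* in the summed *Dnmt3a* and *Dnmt3b* TPM (y axis, percent), with a point for each library and a bar for the group mean. *Tet1* leads in ESC and EpiSC and *Tet3* in the IM groups, and *Dnmt3a* goes from 24.3% in EpiSC to 95.9% in iSLC.

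From IM3 to iSLC the maintenance pair and *Dnmt3b* fell and *Tet2* rose. *Dnmt1* was at 81.8, 81.8 and 78.5 TPM in iSLC against 170.2, 167 and 157 in IM3 (log2 fold change -1.02 ± 0.0399 SE, adjusted p = 3.44e-18). *Uhrf1* was at 72.9, 73.2 and 68.7 TPM against 165, 177 and 152 in IM3 (log2 fold change -1.24 ± 0.0518 SE, adjusted p = 1.5e-17). For both genes the iSLC libraries were the lowest of all 27, and without IM3 replicate 2 the fall of *Dnmt1* was just under the fold minimum (-0.996). *Dnmt3b* was at 4.35, 4.77 and 5.41 TPM (log2 fold change -1.39 ± 0.072 SE, adjusted p = 1.38e-15), also below every other library. *Tet2* was at 24.5, 24.4 and 24.6 TPM against 8.98, 9.06 and 9.29 in IM3 (log2 fold change 1.33 ± 0.0927 SE, adjusted p = 7.71e-13). In TPM this overlaps its ESC level, but in normalized counts it lay below, at 4961 to 5215 against 7353 to 8382 in ESC. *Tdg* was at 68.7, 71.8 and 70.4 TPM against 137, 129 and 124, a fall of 1.81-fold (-0.86, adjusted p = 2.17e-17 on the log2 scale) under the fold minimum. *Tet1* (-0.04, adjusted p = 0.707), *Tet3* (0.22, adjusted p = 0.0117) and *Dnmt3l* (0.40, adjusted p = 0.107) did not pass.

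Under the DE rule 1 member was higher and 3 were lower in iSLC than in IM3, against 10.3% and 8.92% of all genes tested, and 6 passed the p rule, against 66.1%. Of the 12 proliferation genes, 0 were DE and higher and 7 were DE and lower, with a median log2 fold change of -1.09. *Mcm5* (-1.75, adjusted p = 1.81e-20) and *Rrm2* (-1.90, adjusted p = 3.46e-22) were among them, while *Mki67* (0.12, adjusted p = 0.213) did not pass. Red blood cell transcripts were at 0.73 to 0.971 CPM in iSLC against 6.14 to 19.6 in IM3, and of the 6 genes of endothelium and blood 4 were DE and lower and 1, *Itga2b*, DE and higher (1.91 to 8.93 TPM), with 11.3 to 13.4 summed TPM in iSLC and 65.1 to 75.3 in IM3. Of the 6 germ cell genes 1 was DE and lower. The part of these, of the sort, of the change of medium and of the Y chromosome genes in the result was not tested. Nor was that of replating, infection, doxycycline and the longer culture. In these bulk samples, fewer cells of a type and less RNA per cell cannot be told apart.

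**Figure D3:**
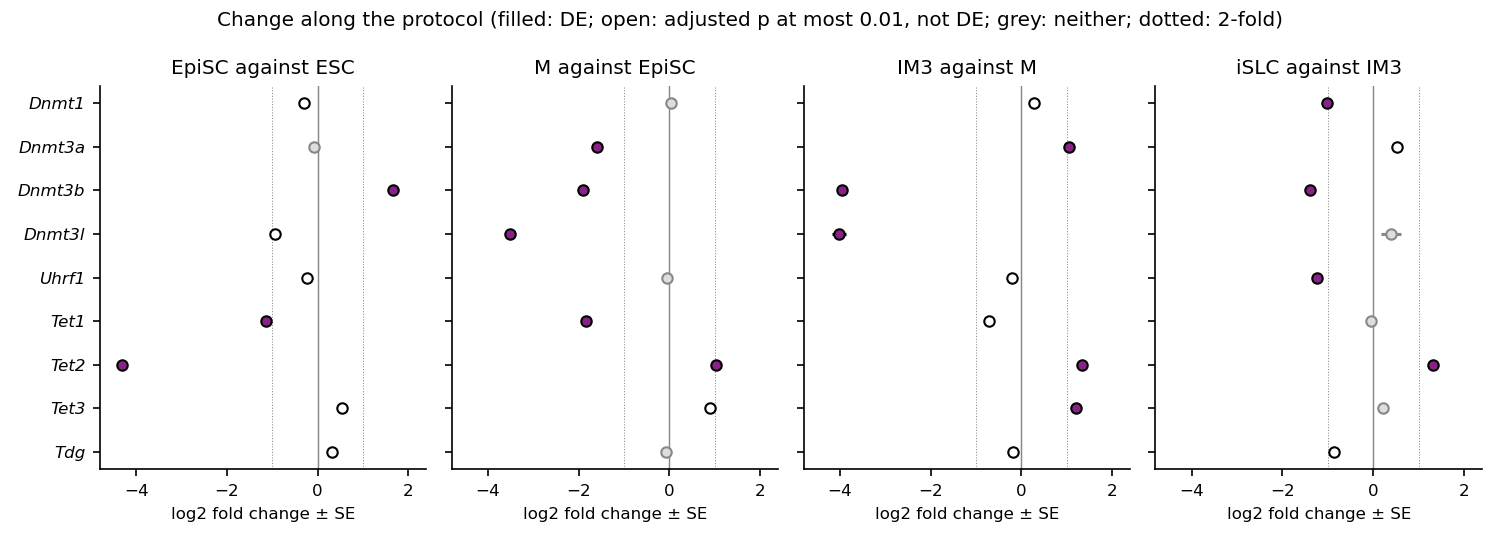
Log2 fold change of normalized counts (x axis) of each member (y axis) in 4 steps of the series, with bars for the standard error. Filled purple points were called DE, open points passed the adjusted p of 0.01 alone, and gray points did not pass. *Dnmt3b* rises from ESC to EpiSC and falls at each later step, and *Tet2* falls from ESC to EpiSC and rises at each later step.

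Set against ESC, the start of the series, iSLC had 1 DE member higher and 4 lower, against 17% and 15% of all genes tested, and 8 passed the p rule, against 79.2%. *Tet3* was the higher gene (log2 fold change 2.85 ± 0.0824 SE, adjusted p = 1.35e-21), 7.22-fold in normalized counts, at 31.4, 29.6 and 29.1 TPM against 3.73, 3.07 and 3.75 in ESC. *Dnmt3l* (267.9-fold), *Dnmt3b* (47.8-fold), *Tet1* (13.4-fold) and *Uhrf1* (-1.70, adjusted p = 5.22e-21 on the log2 scale) were the lower genes. *Dnmt1* (-0.99, adjusted p = 2.04e-18) lay just under the fold minimum, which it passed with DESeq2, with the GC offset (-1.24) and without ESC replicate 1, and *Tdg* (-0.81, adjusted p = 2.98e-17) and *Tet2* (-0.63, adjusted p = 3.77e-07) passed the p rule alone. *Dnmt3a* did not pass on counts (-0.09, adjusted p = 0.0651), although its TPM was 117, 109 and 114 in iSLC against 195, 185 and 205 in ESC, with no overlap. Red blood cell transcripts were at 0.73 to 0.971 CPM in iSLC against 4.02 to 27.6 in ESC. Of the 6 endothelium and blood genes, 3 were DE and higher and 2 lower, at 11.3 to 13.4 summed TPM in iSLC and 50.1 to 51.6 in ESC, and 5 of the 6 germ cell genes were DE and lower, at 4.9 to 4.96 and 112 to 119 summed TPM. The part of these in the result was not tested.

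The difference between the scales for *Dnmt3a* went with its transcript length. The gene has an upstream start region, which gives the long protein DNMT3A1, and an internal start region, which gives the shorter DNMT3A2, known as the main form in embryonic stem cells and germ cells. For each library the files give a mean transcript length, weighted by RSEM's estimate of the share of each transcript. It was 3988, 3988 and 3983 bases in ESC, 4130.4, 4114 and 4228 in EpiSC and 4744, 4498 and 4766 in M. It was 5259, 4999.9 and 5200.0 bases in IM3 and 7068, 7398 and 7277 in iSLC, where the mean was 40.7% above that of IM3 and no library overlapped any other group. The largest step was therefore the one to iSLC, with smaller ones to M and IM3.

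Tested with limma on log2 length over 13385 genes at an adjusted p of at most 0.01, the length of *Dnmt3a* rose by 2095 bases from IM3 to iSLC (log2 change 0.49 ± 0.0303 SE, adjusted p = 6.41e-10). By p this change stood at rank 31 of 13385 genes and by size at rank 489. It also rose from EpiSC to M (512 bases, adjusted p = 0.000621) and from M to IM3 (483 bases, adjusted p = 0.00491), and from ESC to iSLC by 3262 bases (adjusted p = 4.78e-14). From ESC to EpiSC, limma passed 0 members and 5.32% of all genes, with 3 members at an unadjusted p under 0.05. The test passed 2 members from EpiSC to M (8.73% of all genes), 1 from M to IM3 (4.48%), 2 from IM3 to iSLC (13.2%) and 5 from ESC to iSLC (19.4%). Called with *Dnmt3a* from ESC to iSLC, and shorter, were *Dnmt3b* (-523.5 bases), *Uhrf1* (-164.1), *Tet1* (-2296) and *Tet2* (-1349.9). The second members were *Tdg* from EpiSC to M (-158 bases, adjusted p = 0.00305) and *Dnmt3b* from IM3 to iSLC (-330 bases, adjusted p = 0.00203). Fitted with only the groups compared, these 2 and *Dnmt3a* from EpiSC to M (adjusted p = 0.0244) and from M to IM3 (adjusted p = 0.104) were no longer called. Leaving out EpiSC replicate 2 or 3 or M replicate 1 or 3 ended the call of *Tdg* (adjusted p = 0.0117, 0.0153, 0.0174 and 0.0144), leaving out IM3 replicate 2 or iSLC replicate 1 or 2 that of *Dnmt3b* (0.0163, 0.0163 and 0.017), and leaving out M replicate 2 or IM3 replicate 1 or 3 that of *Dnmt3a* from M to IM3 (0.0337, 0.0278 and 0.0222). The call of *Dnmt3a* from IM3 to iSLC held in each of these fits.

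**Figure D4:**
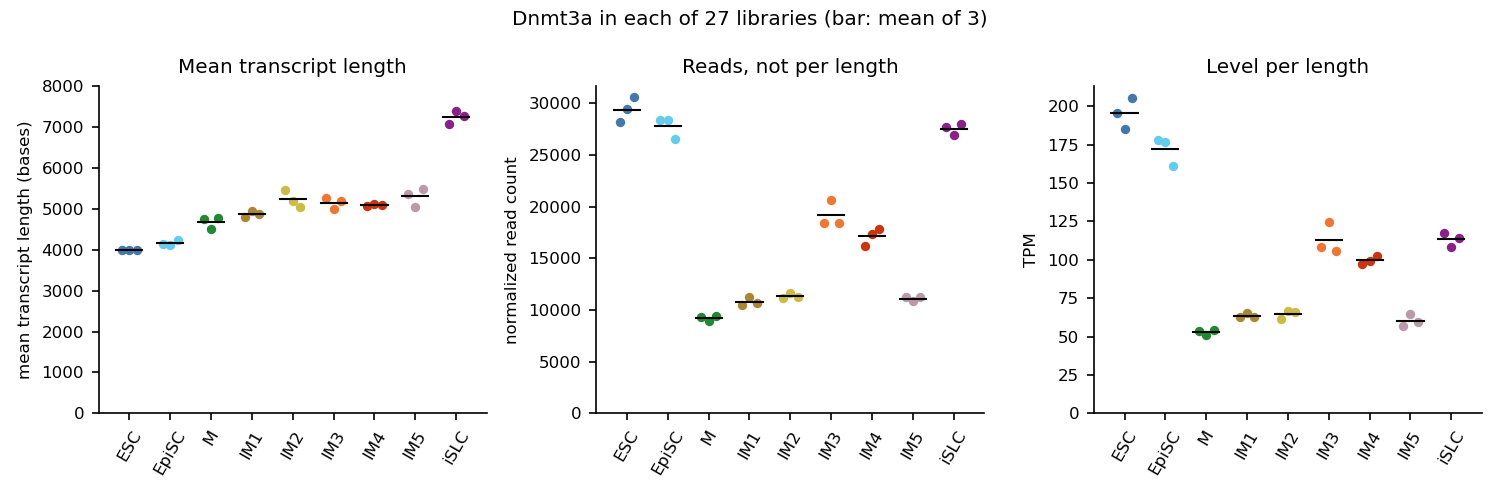
*Dnmt3a* in each of the 27 libraries by group (x axis), with a point for each library and a bar for the mean of 3. The y axes show the mean transcript length in bases, the normalized read count and TPM. Length is highest in iSLC at 7068 to 7398 bases, reads there are above IM3 in every library, and TPM there overlaps IM3.

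Reads and level per length gave different answers for *Dnmt3a* in iSLC. Normalized read counts were 18428, 20630.0 and 18380.0 in IM3 and 27696, 26897 and 27969 in iSLC, higher in every iSLC library (log2 fold change 0.52 ± 0.0473 SE, adjusted p = 1.5e-10). TPM was 108, 125 and 106 in IM3 and 117, 109 and 114 in iSLC, and these overlap. With an offset for effective length in edgeR, the log2 fold change was 0.026 (adjusted p = 0.686) for iSLC against IM3 and -0.987 (adjusted p = 8.53e-15) for iSLC against ESC. With the same offset *Dnmt3a* was 0.897 higher on the log2 scale in IM3 than in M, under the fold minimum.

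The annotation places the long transcripts at the upstream start region printed above. Of 18 annotated *Dnmt3a* transcripts, only Dnmt3a-201 (9685 bases, start 3807030) and Dnmt3a-218 (8737 bases, start 3807160) are longer than 5424 bases. Dnmt3a-203, with 5424 bases, starts at 3891744, the base after the internal window. A mean of over 5424 bases therefore needs a share on the 2 longest transcripts, and the smallest share that gives the mean was 38.6%, 46.3% and 43.5% in the 3 iSLC libraries. In the other 24 libraries it was 0 apart from 0.9% in IM2 replicate 1 and 1.5% in IM5 replicate 3. The bound is 0 for any mean up to 5424 bases, and shorter transcripts lower the mean. A bound of 0 therefore does not show that the long transcripts were absent, and the bounds do not measure a change in share. These are lower bounds from estimated lengths and a later annotation, and the reads of each transcript were not analysed here. In that annotation Dnmt3a-201 and Dnmt3a-203 end at the same base (3914443), and Dnmt3a-218 ends at 3913491.

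Genes that work with the members were read from 8 lists. Each count is read against all genes tested, of which 3.75% were DE and higher and 4.32% lower from ESC to EpiSC, 6.79% and 7.72% from EpiSC to M, and 9.26% and 5.66% from M to IM3. From IM3 to iSLC these shares were 10.3% and 8.92%, and from ESC to iSLC 17% and 15%. Among 9 partners and brakes of maintenance methylation, *Dppa3*, which keeps UHRF1 off chromatin in the egg and early embryo, had the widest range, at 69.6 TPM in ESC, 136 in EpiSC, 14.0 in M and 0.253 in iSLC (group means). It rose from ESC to EpiSC (1.02, adjusted p = 4.79e-08 on the log2 scale) and fell from EpiSC to M (-3.38, adjusted p = 9.81e-18). *Uhrf2*, the relative of *Uhrf1*, rose from EpiSC to M (1.29, adjusted p = 3.61e-18). From IM3 to iSLC, 0 of the 9 were DE and higher and 3 were DE and lower, with a median of -0.49 against 0 over all genes tested. These 3 were *Hells* (-1.65, adjusted p = 4.8e-17), a remodeler needed for methylation, its activator *Cdca7* (-1.22, adjusted p = 9.86e-19), and *Pcna* (-1.39, adjusted p = 8.79e-20), the replication clamp that binds DNMT1. From M to IM3 all 9 passed the p rule in the downward direction, as did 5878 of the 20839 genes tested, with a median of -0.49.

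Of 12 genes that guide new methylation to its sites or keep it off, 2 fell from ESC to EpiSC under the DE rule and 0 rose. *Prdm14*, which holds down the new writers in naive stem cells, changed by -3.74 (adjusted p = 5.34e-14) on the log2 scale, from 12.7 to 0.920 TPM. *Zfp57*, which protects imprinted methylation, changed by -1.62 (adjusted p = 1.51e-19). From ESC to iSLC 4 of the 12 were DE and lower and 0 were higher, and *Trim28* (-1.73, adjusted p = 6.22e-23) and *Setdb1* (-1.15, adjusted p = 9.07e-21), which act with ZFP57, were the other two. *Kdm2b* was the DE gene of this list from M to IM3 (-1.2, adjusted p = 2.73e-18).

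The 9 germline genes known to be silenced by promoter methylation fell in the step from EpiSC to M. From EpiSC to M, 0 were DE and higher and 5 were DE and lower, all 9 passed the p rule in the downward direction, and the median log2 fold change was -4.70 against -0.06 over all genes tested. With *Asz1*, which had no count in any M library, set at the bound that 3 counts per library give, the median was -4.55. *Tex19.1* was at 94.9 TPM in ESC, 29.5 in EpiSC and 0.857 in M (-5.22, adjusted p = 7.08e-24 for M against EpiSC). *Hormad1* was at 38.1, 19.0 and 0.370 TPM (-5.76, adjusted p = 1.42e-18). *Dazl* (-4.21, adjusted p = 8.05e-16), *Mael* (-4.55, adjusted p = 5.6e-14) and *Ddx4* (-3.07, adjusted p = 3.78e-16) were the other DE genes. From ESC to EpiSC, 4 of the 9 passed the p rule downward and 0 upward, with a median of -0.62. From IM3 to iSLC, 0 were DE with edgeR, with *Ddx4* higher (1.86, adjusted p = 4.61e-07) and *Tex19.1* (-1.69, adjusted p = 2.11e-10) and *Asz1* (-5.96, adjusted p = 6.49e-10) lower under the p rule. The group means of all 9 were under 2 TPM in both groups.

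Of the 8 readers of methylated CpG, 5 were higher and 3 were lower from ESC to iSLC under the p rule, which 79.2% of all genes passed, so that this count is near the background. From M to IM3, 2 were DE and higher, *Mbd2* (1.27, adjusted p = 7.51e-16) and *Zbtb4* (1.25, adjusted p = 9.74e-14), and 1 was DE and lower, *Mbd4* (-1.28, adjusted p = 7.36e-15), which is also a glycosylase. From IM3 to iSLC, *Mbd1* (1.39, adjusted p = 2.57e-16) and *Zbtb4* (1.58, adjusted p = 8.39e-17) were DE and higher. From ESC to iSLC, 3 were DE and higher and 0 lower (17% and 15% of all genes), with a median of 0.82 against -0.01 over all genes tested. *Zbtb4* went from 1.2 TPM in ESC to 18.2 in iSLC, and *Mbd1* from 7.46 to 37.3.

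Of 14 genes of base excision repair and deamination, which act after the TET enzymes and TDG, 3 were DE and lower from EpiSC to M and 0 higher, with a median of -0.59. They were *Ung* (-1.06, adjusted p = 7.04e-14), *Neil1* (-1.34, adjusted p = 4.51e-14) and *Apobec2* (-1.69, adjusted p = 1.59e-05). From ESC to iSLC 7 were DE and lower (15% of all genes), *Parp1* (-2.02, adjusted p = 5.91e-25) and *Apex1* (-1.43, adjusted p = 1.08e-17) among them, and 1 was DE and higher (17% of all genes), the glycosylase *Neil3* (1.81, adjusted p = 2.58e-14), with a median of -1.33. *Apobec1* was the DE gene of this list between IM3 and IM1, higher with retinoic acid (2.54, adjusted p = 1.65e-14).

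Of 9 TET partners and genes that supply the TET cofactor, *Idh1* was DE and higher (1.22, adjusted p = 2e-18) and *Slc23a2*, a vitamin C transporter, DE and lower (-1.44, adjusted p = 1.26e-15) from EpiSC to M. From ESC to iSLC 3 were DE and higher and 1 lower (17% and 15% of all genes), with a median of 0.80. *Cxxc4*, which binds TET2, went from 0.143 to 11.7 TPM (5.78, adjusted p = 7.59e-24) and *Idh2* from 116 to 390.1 TPM (1.52, adjusted p = 1.94e-17). Of 9 genes that supply methyl groups, 4 were DE and lower and 1 higher from ESC to iSLC (15% and 17% of all genes), with a median of -1.10. *Shmt2* changed by -2.17 (adjusted p = 3.36e-20) on the log2 scale. The eighth list, the proliferation genes, had 9 of 12 DE and lower from ESC to iSLC and 0 higher.

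Likeness of pattern was described by Pearson's r of log2 group means over the 9 groups, among about 12061 genes, and the points share their libraries. Such an r takes no account of level or of the size of a change. *Dnmt3b* was most like *Snrpd2* (r = 0.994), *Rimbp2* (0.993) and *Ell3* (0.988), and *Dnmt3l* was most like *Cplx1* (0.998), with *Galnt9* (0.997) also among its first 3. The group means of *Snrpd2* ran only from 107 TPM in iSLC to 221 in EpiSC. Those of *Rimbp2*, *Cplx1* and *Galnt9* reached at most 4.55, 3.48 and 2.07 TPM. *Tet1* was most like *Trim13* (0.994), *Tet2* most like *Socs3* (0.985), which responds to the ESC cytokine LIF, and *Tet3* most like *Zswim8* (0.996). *Uhrf1* was most like *Crabp2* (0.982), *Dnmt1* most like *Usp14* (0.987), *Dnmt3a* most like *Eci1* (0.954), and *Tdg* most like the Y chromosome gene *Kdm5d* (0.986). Within the 9 members, *Dnmt3l* and *Tet1* ran most alike (r = 0.959 over 9 groups) and *Dnmt3l* and *Tet3* most opposite (r = -0.987). *Dnmt3a* stood apart from the rest, with a most-like gene of lower r than that of any other member.

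Shared reads limit a few of these values. *Dnmt3b*, *Uhrf1* and *Tdg* had expected counts that were not whole in 23, 27 and 27 libraries, so RSEM had divided some of their fragments with other genes. *Dnmt3c*, the close copy of *Dnmt3b*, reached at most 15.6 expected counts, and *Gm9855*, which resembles *Tdg*, at most 2.68 TPM. On the opposite strand, *Aire* covers 2.242% of the exon bases of *Dnmt3l* (at most 17.49 TPM) and *Glt8d2* covers 6.829% of those of *Tdg* (at most 4.69 TPM). Whether counting used strand is not given in the sources used here.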

How the data were processed

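RNA-seq of mouse cells was analysed in 27 libraries (9 groups of 3, grouped by the sample labels). The authors trimmed reads with cutadapt 1.9.1, aligned them to GRCm38 with STAR 2.5.2a and estimated abundance with RSEM 1.3.0 (versions from the submitters' processing notes). The authors deposited, per gene and library, expected counts (RSEM's estimate of fragments, not normalized), TPM (per effective length, scaled to 1 fixed sum), FPKM values and mean transcript lengths. The depth was 35923040 to 84876603 expected counts per library, and the counting floor of 3 counts covers counting error only.

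Here expected counts were rounded to whole numbers, filtered by filterByExpr (20839 genes kept), scaled by TMM and fitted with edgeR 4.0.16 (quasi-likelihood, R 4.3.3) in 1 model with a coefficient for each group, with Benjamini-Hochberg adjustment over all genes tested. Lengths were tested with limma 3.58.1, and shares by exact permutation (SciPy 1.17.1), where 3 against 3 cannot give a p under 0.1. Names and coordinates came from GENCODE M21 (48349 genes, 99.09%), later than the authors' Ensembl release, and 90.59% of genes with 1 transcript had the same length in the files. The edgeR fit, the limma fit of lengths, the replicate block and DESeq2 were tested on simulated data for iSLC against IM3. The permutation tests, the offsets and the *Dnmt3a* bounds were not.

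Alternatives were DESeq2 1.42.0, its size factors, offsets for length and GC content, no filter, other thresholds, only the groups compared, a replicate block, each replicate left out, FPKM in place of TPM and TPM scaled by TMM. Replicate numbers do not pair the libraries, and chi-square per degree of freedom between replicates was at least 3.643, so none were deposited more than once. The members were taken by symbol, with no measured value in the rule, but this choice, the lists and the tests were made with earlier results of these data known. The most-like genes named were among the first 3 by r. Results of some genes are not reported here.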

Additional observations from a re-analysis of the deposited data

How the results depend on the processing

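Of 531 values of the 34 counts and ratios under alternatives, 514 kept their side. For IM4 against IM3 the DESeq2 Wald test passed 1 member (*Dnmt3a*), where edgeR passed 0. Most other changes were in counts of members with a changed length. In a fit of only the groups compared these were 1 for EpiSC against ESC (*Tet2*, from 0), 0 for M against EpiSC (from 2), 0 for IM3 against M (from 1) and 1 for iSLC against IM3 (from 2), and with the effective length column 0 for IM3 against M. With 1 replicate left out at a time they were 1 to 2 for M against EpiSC, 0 to 1 for IM3 against M and 1 to 2 for iSLC against IM3. The log2 ratio of *Uhrf1* to *Dnmt1* with and without Activin A differed by -0.087 to -0.043 with 1 replicate left out. It passed without IM4 replicate 1 or IM5 replicate 1 (exact permutation, adjusted p = 0.0498 and 0.0455). The fold change of *Dnmt3a* from M to IM1 changed sign with the GC offset, to -0.025, and to -0.026 with the replicate block added, neither past the threshold. The cause of these was not tested. Of 1674 fold changes of single members, 1583 kept direction and side, 14 lost and 24 gained a call, and 51 that never passed changed sign. The replicate block changed no call of the 187 values fitted with it. The mean correlation of deviations was 0.002 between libraries with the same number and -0.001 between others, and 0 of 36 pairs of groups had all 3 above 0.1. Of 81 group TPM values, 38 moved by over 1 SD with a TMM factor and 0 when computed from FPKM. Depth limits *Dnmt3l* most, which lies near 1 TPM in the IM groups and iSLC.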

Other observations

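Genes of the Y chromosome were low in the iSLC libraries, which the labels call XY like all others. *Kdm5d* lay between 0.44 and 0.79 TPM in iSLC and had group means of 5.06 to 9.47 TPM in the other 8 groups. *Eif2s3y* lay between 3.29 and 3.47 TPM in iSLC, against group means of 53.01 in M to 70.55 in IM4. *Uty* lay between 0.89 and 1.42 TPM, against means of 10.51 in IM5 to 21.72 in ESC, and *Ddx3y* between 1.15 and 1.19 TPM, against 16.73 in IM1 to 31.83 in ESC. *Xist*, the RNA of the inactive X chromosome, was at 0.14 TPM in iSLC and at most 2.15 TPM in any group mean. These genes were looked at after *Kdm5d* came out as the gene most like *Tdg*.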
